A study of Mus musculus with 3 samples.

Results

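The cells described here are CD4+ T cells with transcripts of both Igfbp4 and Lef1 and none of Foxp3, Cd8a or Cd8b1. They numbered 1184 of the 13337 first-day cells that passed the cell filter, 1058 in spleen and 126 in kidney. They were chosen by the counts of these 5 genes, with at least 1 unique molecular identifier (UMI, a counted transcript molecule) of Igfbp4 and of Lef1, so the levels of the 5 genes are given only as a description. Ccr7, Dapl1, Actn1 and Satb1 took no part in the choice and served to check the label of naive CD4 T cells. They belong to the same marker set as Igfbp4 and Lef1, chosen with earlier results of these data known. The check is therefore a description and not independent.

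The series deals with inducible loss of Ezh2, the methyltransferase subunit of Polycomb repressive complex 2 (PRC2), in CD4+ T cells of lupus-prone mice. All mice were on the MRL/lpr background with floxed Ezh2 alleles (Ezh2fl/fl). The 3 mice called WT carried no Cre. The 2 called KO also carried the CD4-Cre/ERT2 transgene, a tamoxifen-dependent Cre under control of Cd4 sequences, which is not restricted to naive cells. Mice of both genotypes were given tamoxifen by gavage (300 mg/kg on 3 days of every other week, from an age of 10 or 14 weeks, not stated per mouse, up to 24 weeks). CD4+ T cells were sorted from kidney and spleen on CD3, TCR beta, CD4 and CD8a, and the cells of each mouse and organ received their own antibody tag before pooling and single-cell sequencing from transcript 5′ ends. KO1 and KO2 below are the KO mice and WT1 to WT3 the WT mice, and each gave cells of both organs. Values are listed in that order, and for kidney members in the order KO1, KO2 and WT1.

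A naive CD4 T cell has left the thymus and has not yet met its antigen. It circulates between blood and lymphoid organs, guided in by CCR7 and out by the sphingosine-1-phosphate receptor S1PR1, and transcription factors such as KLF2, FOXP1, TCF-1 (Tcf7) and LEF-1 maintain its resting state. Activation replaces this programme with integrins, chemokine receptors, cytokines and proliferation genes. In MRL/lpr mice activated T cells accumulate with age and infiltrate the kidney.

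The 10 combinations of mouse and organ shared no cell barcode in 45 pairwise comparisons. Median UMIs per cell were 3187 to 3520 in kidney and 3210.5 to 3644.5 in spleen. The summed members of a spleen held 95895 to 2177072 UMIs, and those of the KO1, KO2 and WT1 kidneys 93360 to 316023. The WT2 and WT3 kidneys gave 8 and 1 members, fewer than the 10 required for a sum, and entered no test. Levels are UMI counts scaled to a common library total, as CPM of the summed cells of 1 mouse. They compare 1 gene between groups of cells, not different genes. The mouse was the replicate in every test.

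Igfbp4+ Lef1+ cells were a large part of the KO spleens and a rare part of the WT spleens. They were 536 of 1324 CD4+ T cells in KO1 (40.5%) and 450 of 1580 in KO2 (28.5%). In the WT spleens the gate was met by 36 of 2386 cells in WT1 (1.51%), by 20 of 922 in WT2 (2.17%) and by 16 of 2146 in WT3 (0.746%). The genotypes did not overlap, and the mean share was 34.5% ± 8.49 (SD, n = 2) in KO against 1.47% ± 0.712 (SD, n = 3) in WT. The gate was proposed with this difference known, so no test is given. In these pooled samples a larger share of 1 kind of cell and fewer cells of the other kinds cannot be told apart.

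The kidney gave the same order of genotypes. Members were 71 of 717 cells in KO1 (9.90%) and 27 of 219 in KO2 (12.3%). Among WT kidneys, that of WT1 had 19 members in 1629 cells (1.17%), that of WT2 had 8 in 1467 (0.545%) and that of WT3 had 1 in 947 (0.106%). The mean was 11.1% ± 1.72 (SD, n = 2) in KO and 0.606% ± 0.533 (SD, n = 3) in WT, again without overlap, and in each of the 5 mice the kidney share was below the spleen share. With cells thinned to 2000 UMIs the KO and WT means were 31.1% and 1.06% in spleen and 9.16% and 0.349% in kidney. With Ccr7 in place of Igfbp4 in the gate they were 36.3% and 6.04% in spleen and 24.8% and 5.23% in kidney.

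**Figure D1:**
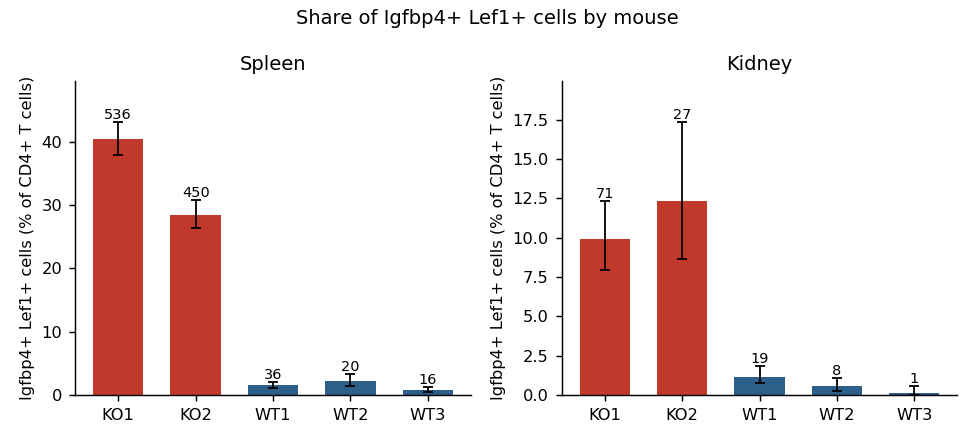
Percentage of CD4+ T cells that were Igfbp4+ Lef1+ with Foxp3, Cd8a and Cd8b1 at 0, 1 bar per mouse and organ, red for KO and blue for WT. Error bars are 95% Wilson intervals, which cover counting error only, and the numbers at the bars are cells. The KO bars stand at 40.5% and 28.5% in spleen and at 9.90% and 12.3% in kidney, and the highest WT bar at 2.17%.

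The gate needed only 1 UMI of each gene, which free RNA can supply. Among effector cells (Nkg7 and Ccl5 detected, Foxp3 at 0), 0.514% to 1.14% had an Igfbp4 UMI in WT, against 2.65% and 8.97% in the KO kidneys and 10.6% and 6.78% in the KO spleens. The whole gate was met by 0.143% to 0.454% of effector cells in WT, by 1.06% and 3.85% in the KO kidneys and by 7.75% and 5.93% in the KO spleens. Median depth of these effector cells was 3122.5 to 3910.5 UMIs. The member shares of the WT2 and WT3 kidneys were 0.545% and 0.106%. Of their 8 and 1 members, 6 and 1 were themselves effector cells counted here, so the 2 rates are not independent. Whether the UMIs of such cells came from free RNA was not tested.

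The number of Igfbp4 UMIs differed among members. Its median was 10 and 7 in the KO1 and KO2 spleens and 7.5, 3 and 6 in the WT spleens. Exactly 1 Igfbp4 UMI was found in 41 of 536, 46 of 450, 7 of 36, 7 of 20 and 5 of 16 of these cells, and in 7 of 8 members of the WT2 kidney. Just outside the gate, cells with Lef1 but no Igfbp4 had 425 and 420 CPM of Ccr7 in the KO1 and KO2 spleens and 58.7 to 119 CPM in the WT spleens, against 767 to 1203 CPM in members with 2 or more Igfbp4 UMIs. Cells with Igfbp4 but no Lef1 had 922 and 1215 CPM in KO1 and KO2, and cells with neither 24.4 to 197 CPM over the 5 spleens. The other cells of the KO spleens therefore held cells with intermediate to high Ccr7. The negative conditions left out 26 and 33 cells of the KO1 and KO2 spleens with a CD8 transcript and 15 and 16 with Foxp3.

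Without thinning, most members carried at least 2 of the 4 markers left out of the gate in 5 of 5 spleens and 3 of 5 kidneys. At least 2 of the 4 unused markers were detected in 85.3%, 89.1%, 80.6%, 75% and 75% of spleen members, against 3.10% to 26.4% of the other spleen cells. With cells thinned to 2000 UMIs, since members were deeper, the shares were 63.3%, 68.2%, 65.7%, 57.9% and 43.8% against 0.833% to 17.3%. In kidney the share was 91.5% in KO1, 92.6% in KO2 and 84.2% in WT1, and 78.3%, 77.8% and 57.9% at 2000 UMIs. It was 4 of 8 cells in WT2 and 0 of 1 in WT3, where 6 of 8 and 1 of 1 members carried both Nkg7 and Ccl5. The Igfbp4+ Lef1+ cells of these 2 kidneys went against the naive label. In the spleens 2.05%, 3.11%, 5.56%, 10% and 25% of members carried the Nkg7 and Ccl5 pair, the last being 4 of 16 cells in WT3. The activation gene Cd44 was found in 15.3%, 15.8%, 19.4%, 15% and 43.8% of spleen members. Among other spleen cells it was found in 45.8%, 46.5%, 51.4%, 34.5% and 43.0%. By Cd44 the members of WT3 were therefore not set apart from its other cells, and the naive label is least clear there among the spleens.

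The 4 unused markers separated members from the other cells of the same spleen in every mouse. Ccr7, the lymph node homing receptor, was at 790.1, 1208, 963, 968 and 521 CPM in members and at 321, 319, 141, 33.9 and 62.0 CPM in other cells. Satb1, a chromatin organiser of T cells, was at 520.0, 499, 391, 499.6 and 250.3 CPM in members and at 169, 138, 35.9, 90.8 and 33.9 CPM in other cells. For both genes every member value lay above every value of the other cells. In edgeR's quasi-likelihood test with the mouse as a block, the difference passed for Ccr7 (log2 fold change 2.85, SE 0.27, adjusted p = 1e-08) and for Satb1 (log2 fold change 2.56, SE 0.19, adjusted p = 2.7e-10).

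Dapl1, a transcript enriched in naive T cells, was at 70.7, 97.5, 149, 31.2 and 62.6 CPM in members and at 9.99, 13.6, 5.14, 2.99 and 10.3 CPM in other cells, without overlap (log2 fold change 3.47, SE 0.24, adjusted p = 8.64e-11). Actn1, an actin cross-linker, was at 277, 300.2, 269.7, 146 and 73.0 CPM in members against 101, 100.3, 27.0, 7.23 and 25.1 CPM (log2 fold change 2.31, SE 0.24, adjusted p = 5.11e-08). The Actn1 value of WT3 members lay below that of the other cells of the KO spleens and above that of its own other cells. In the mouse assembly GRCm38.p6, Igfbp4 lies on chromosome 11 (99040005 to 99052655), as does Ccr7 (99144199 to 99155077), and Lef1 on chromosome 3 (131110297 to 131224357).

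**Figure D2:**
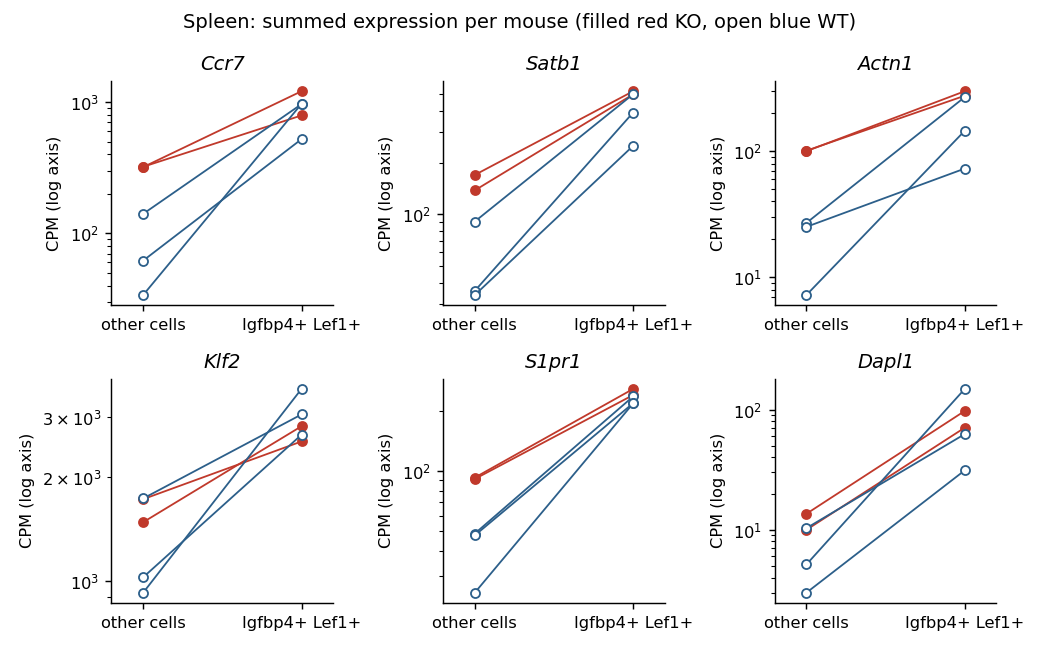
Summed expression in CPM (log axis) of 6 naive-cell genes in the other cells and the Igfbp4+ Lef1+ cells of each spleen, 1 line per mouse, filled red for KO and open blue for WT. Every line is higher in the Igfbp4+ Lef1+ cells, and for Ccr7 these lie at 521 to 1208 CPM against 33.9 to 321 CPM.

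Across all genes, 2141 of 9756 tested (21.9%) differed between members and other spleen cells at an adjusted p under 0.05 in edgeR's quasi-likelihood test with the mouse as a block, 792 higher (8.12%) and 1349 lower (13.8%). Transcripts of the same cells chose the members, so this is a description of them and no test of the choice. The count was 768 with Ccr7 in place of Igfbp4 in the gate, 1296 without KO1, 1168 without KO2 and 1360 in DESeq2. Of 15 tested genes of the naive surface list 14 were higher and 0 lower, with a median log2 fold change of 2.33 against -0.05 over all genes. Pdlim4, an actin-associated adaptor, was at 131, 224, 176, 135 and 83.4 CPM in members and at 18.7, 22.8, 1.21, 0.748 and 1.01 CPM in other cells (log2 fold change 4.29, SE 0.39, adjusted p = 5.59e-09). Ly6c1, a surface protein of T cells, was at 158, 201, 165, 291 and 167 CPM against 34.2, 35.0, 0.806, 1.25 and 3.52 CPM (log2 fold change 3.83, SE 0.46, adjusted p = 4.35e-07). Members of the 5 spleens were alike in these genes, while the other cells held more of both in KO than in WT mice.

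The rest of the 10 largest rises were the non-coding RNA Hotairm1 (3.42), Treml2 (3.31), Auts2 (3.23), the adhesion gene Amigo2 (3.19), Nacc2 (3.11) and Bambi, a pseudoreceptor for TGF-beta family ligands (2.96). A rise in 5 of 5 mice was a condition for naming them. The WT members held few counts, 2, 1 and 1 of Hotairm1, 4, 1 and 3 of Auts2, 9, 2 and 4 of Amigo2 and 8, 3 and 2 of Nacc2. Nacc2 did not pass with the Ccr7 gate (1.91).

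Transcription factors of resting T cells were mostly higher, 6 of 11 tested, with 1 lower. Klf2, which drives S1pr1, stood at 2542, 2814, 2659, 3612 and 3045 CPM in members against 1728, 1481, 1025, 924 and 1736 CPM, without overlap (log2 fold change 1.33, SE 0.14, adjusted p = 4.19e-08). Bach2, a repressor of effector genes (2.03, SE 0.19), Tcf7 (1.12, SE 0.15) and Foxp1 (1.08, SE 0.17) were higher. Myb was the 1 lower factor (-1.25, SE 0.22). It did not pass without the mouse as a block (-1.46) and turned to 0.72 with the Ccr7 gate.

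Receptors for homing and exit had 5 of 9 higher and 0 lower. S1pr1 was at 241, 258, 237, 219 and 219 CPM in members, nearly level over the 5 mice, and at 91.5, 93.0, 48.8, 24.7 and 47.8 CPM in other cells (log2 fold change 2.10, SE 0.17, adjusted p = 1.09e-09). Of 12 survival and cytokine receptor genes 7 were higher and 2 lower. The interferon-gamma receptor chain Ifngr2 (2.50, SE 0.28), Bcl2, which blocks apoptosis (1.66, SE 0.27), Il6ra (1.54, SE 0.23) and Il4ra (1.45, SE 0.16) were among the higher ones. Il7r, the IL-7 receptor on which resting T cells depend, did not pass (0.52, SE 0.25, adjusted p = 0.154), but did without KO1 (0.84) or KO2 (0.83) and with 2 or more Igfbp4 UMIs (0.64).

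Of 10 quiescence genes 4 were higher and 0 lower. They were Pik3ip1, an inhibitor of PI3K (1.49, SE 0.18), the glucocorticoid target Tsc22d3 (1.02, SE 0.14), Txnip (0.79, SE 0.14) and Btg2 (0.53, SE 0.13), of which Txnip and Btg2 did not pass with the Ccr7 gate. All 10 translation genes were higher. The ribosomal protein transcript Rps24 was at 10893, 10818, 10035, 10524 and 9323 CPM in members and at 6841, 6500.1, 5684, 5518 and 6339 CPM in other cells (0.96, SE 0.09), and Rpl12 (1.11), Rps29 (0.93) and Rpl3 (0.92) were higher too.

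Whole-cell features moved with membership. Ribosomal protein transcripts were a median of 32.6% to 35.0% of a spleen member's UMIs and 18.9% to 22.9% of another cell's. Spleen members had medians of 3892.5 to 5128.5 UMIs against 3196 to 3413, and once thinned to 2000 UMIs they showed 903.5 to 918 genes against 1031 to 1082. The part of depth and of the ribosomal share in the fold changes was not tested.

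The programme of activated T cells was lower in members. All 18 activation and memory genes, 13 of 14 effector genes and all 10 inhibitory receptor and regulator genes were lower, against 13.8% of all genes. The calcium-binding protein S100a4 was at 9.19, 6.22, 71.6, 10.4 and 93.9 CPM in members and at 476, 423, 390.4, 515 and 446 CPM in other cells (log2 fold change -4.55, SE 0.35, adjusted p = 4.71e-10). The chemokine Ccl5 was at 83.6, 104, 77.1, 208 and 1116 CPM in members against 1773, 2642, 4961, 28950.0 and 18904 CPM (log2 fold change -4.78, SE 0.25, adjusted p = 9.68e-13). Members of WT3 held the most Ccl5 and S100a4, and in both genes the highest member value lay below the lowest value of other cells.

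Further activation genes were S100a6 (-3.81), the scaffold Ahnak (-2.67) and the chemokine receptor Cxcr3 (-4.02), of which Ahnak and Cxcr3 did not pass with the Ccr7 gate. Among effector genes the chemokine Ccl4 (-4.91), the protease Gzmb (-4.93) and the cytokine Ifng (-3.20) stood beside Ccl5. The inhibitory receptors Ctla4 (-2.45), Tigit (-4.16) and Havcr2 (-5.40) and the factor Maf (-3.36) were lower.

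Genes of specialised helper and regulatory cells were lower as well. All 8 tested regulatory T cell genes were lower, among them Ikzf2, which encodes Helios (-4.43); the gate itself required Foxp3 at 0. Of 9 follicular helper genes 8 were lower, including Icos (-2.11), Il21 (-4.03) and Sostdc1 (-5.48). Of 3 tested Th17 genes 1 was lower, Rora (-2.47), which did not pass with the Ccr7 gate (-0.87). Beside Sostdc1, the relaxin gene Rln3 (-5.66), the glycosyltransferase Gcnt1 (-5.42) and the integrin Itgae (-5.41) were among the 10 largest falls. Gcnt1 did not pass with the Ccr7 gate (-1.77), nor Sostdc1 in DESeq2 (-3.07) or without the mouse as a block (-4.80).

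The other 6 of those falls had no count among 4479555 UMIs of spleen members. They were the mitotic genes Ncaph, Plk1 and Hmmr, the receptors Klrk1 and Ryk, and Themis2. Within the KO spleens, against a floor of 3 counts over their 4105928 member UMIs, 0.731 CPM, Ncaph was at least 15.8-fold lower, Klrk1 at least 11.8-fold, Ryk at least 11.6-fold and Plk1 at least 10.5-fold. The members of a WT spleen had floors of 16.5 to 31.3 CPM, and no bound is given for them. Of 14 cell cycle genes 11 were lower and 0 higher, among them Ube2c (-2.98), Mki67 (-2.95), Rrm2 (-2.30) and Top2a (-1.72). These calls depended on the gate: with Ccr7 in place of Igfbp4, Mki67 (-0.32), Top2a (-0.13), Ube2c (-0.64), Rrm2 (-0.24), Ncaph, Hmmr, Ryk and Themis2 did not pass, and Plk1 turned to 0.12.

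Counted by cell at 2000 UMIs, the proliferation marker Mki67 was found in 0 of 523 and 3 of 440 members of the KO1 and KO2 spleens and in 1 of 35, 0 of 19 and 0 of 16 members of the WT spleens. A count of 0 allows shares of up to 0.574%, 15.8% and 18.8% in the first and the last 2 of these, a limit on cells with a UMI at this depth and not on cycling cells. Unthinned, Mki67 was found in 3 of 536, 6 of 450, 1 of 36, 0 of 20 and 1 of 16 members. Among other cells it was found in 2.94%, 2.38%, 4.94%, 7.86% and 4.50%. The mean difference was -3.82 percentage points, lower in 5 of 5 mice (exact two-sided sign-flip permutation p = 0.0625, the smallest that 5 mice allow). Without thinning the mean difference was -4.74 points.

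Immediate-early genes were split, with 7 of 16 higher and 4 lower. Nr4a1, an early target of T cell receptor signals, was at 966, 706, 462, 437 and 532 CPM in members against 598, 397, 244, 198 and 275 CPM, higher in 5 of 5 mice although the ranges overlap (log2 fold change 1.11, SE 0.12, adjusted p = 1.37e-07). Its relative Nr4a2 was at 38.6, 37.8, 49.5, 83.3 and 62.6 CPM in members against 226, 248, 434, 317 and 399.7 CPM (log2 fold change -2.37, SE 0.17, adjusted p = 7.48e-11), a call lost with the Ccr7 gate (-0.89). Of 8 heat shock genes 1 was higher and 1 lower, and of 11 interferon genes 2 were higher and 1 lower, with Usp18 at 1.60. Over all genes 8.12% were higher and 13.8% lower.

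**Figure D3:**
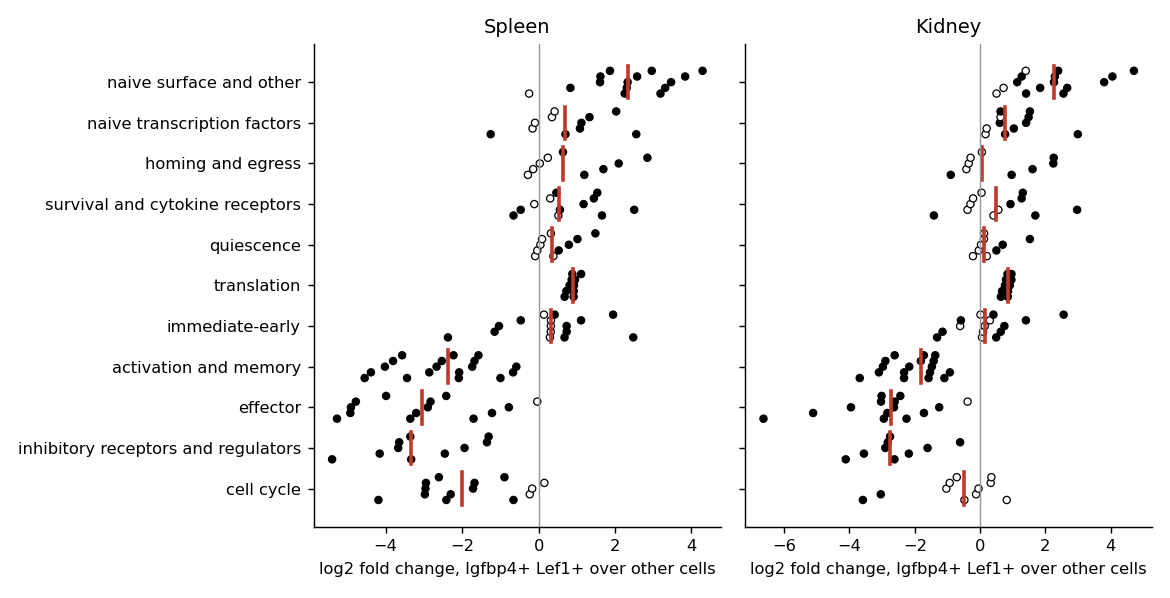
Fitted log2 fold changes between Igfbp4+ Lef1+ cells and other cells of the same organ, by gene list, for spleen and kidney. Each point is a gene, filled where its adjusted p was under 0.05, and red lines are list medians, which in spleen run from 2.33 for naive surface genes to -3.34 for inhibitory receptors and regulators.

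Ezh2 itself was lower in spleen members than in other cells. It was at 26.6, 29.6, 0, 41.6 and 62.6 CPM in members, from 58, 57, 0, 4 and 6 counts, and at 70.2, 67.9, 79.3, 182 and 156 CPM in other cells, without overlap (log2 fold change -1.23, SE 0.21, adjusted p = 6.38e-05). The call was lost with the Ccr7 gate (-0.13), and no other of the 10 tested PRC2 genes passed. The 0 counts of WT1 allow up to 16.5 CPM. Ezh2 had too few counts in members to be tested between the genotypes, so its transcript could not check the KO label there, and whether the counted reads cover the floxed part of the gene is not given in the sources used here. Of 11 tested genes that PRC2 is known to control in T cells 9 were lower in members and 1 higher. The factors Eomes (-2.83), Prdm1 (-2.90) and Tbx21 (-3.99) and the cell cycle inhibitor Cdkn2c (-2.05) were lower, of which Eomes, Tbx21 and Cdkn2c did not pass with the Ccr7 gate.

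Markers of other cell types were low in spleen members except for B cell genes. The myeloid list summed to 52.0 to 99.1 CPM in members against 149 to 605 CPM, with Lyz2 and S100a8 at 0. From the list of CD8, NK and gamma-delta T cells, 6 genes summed to 0 to 10.4 CPM against 13.5 to 41.8 CPM. Cd8a and Cd8b1 were left out of that sum, since the gate set them to 0. The B cell list summed to 306 to 2248 CPM in members and 534 to 1506 CPM in other cells, with Ms4a1 at 0 in members, and 3 of its 6 tested genes were lower. Of 12 T cell identity genes 4 were lower, among them Cd3g (-0.65) and Zap70 (-0.69), while Cd4 did not pass (-0.19, SE 0.15, adjusted p = 0.41).

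Kidney members differed from the other kidney cells in 832 of 6088 tested genes (13.7%) over KO1, KO2 and WT1, 412 higher (6.77%) and 420 lower (6.9%). The count was 512 without KO1 and 441 with the Ccr7 gate. Ccr7 was at 1629.6, 2834 and 2228 CPM in members and at 676, 624 and 353 CPM in other kidney cells (log2 fold change 2.25, SE 0.15, adjusted p = 1.73e-15). Satb1 was at 769, 665 and 568 CPM against 122, 146 and 51.1 CPM (log2 fold change 2.99, SE 0.18, adjusted p = 4.67e-17). Actn1 was at 222, 328 and 204 CPM against 69.5, 81.0 and 18.7 CPM (log2 fold change 2.39, SE 0.25, adjusted p = 6.9e-10). In these 3 genes members and other cells did not overlap. Dapl1 had 22.2, 27.3 and 53.6 CPM, from 7, 3 and 5 counts, against 16.3, 13.9 and 8.61 CPM and did not pass (1.40, SE 0.55, adjusted p = 0.0891).

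Most lists of the naive and of the activated programme went the same way as in spleen. Of 15 naive surface genes 12 were higher and 0 lower, of 11 transcription factors 8 and 0, and of 10 translation genes 10 and 0. All 17 tested activation genes, 13 of 14 effector genes and all 9 inhibitory genes were lower. Beside Satb1, the 10 largest rises were Pdlim4 (4.71), Treml2 (4.05), Ly6c1 (3.80), the sodium pump subunit Atp1b1 (3.65), Ifngr2 (2.97), Rgmb (2.73), Rflnb (2.67), the urokinase receptor Plaur (2.56) and Amigo2 (2.55). S1pr1 (1.61), Foxp1 (1.53) and Klf2 (1.49) were higher. Of 9 homing genes 4 were higher and 1 lower, with a median of 0.06 against 0.64 in spleen. Of 11 cell cycle genes 2 were lower, against 11 of 14 in spleen, and Ezh2 did not pass (-0.72, SE 0.36, adjusted p = 0.217). Whether these lists differ between the organs was not tested.

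The 10 largest falls were genes with no count among the 519141 UMIs of KO1, KO2 and WT1 kidney members: the NK receptors Klrc1, Klrd1 and Klrk1, the cytokine Spp1, Itgae, Sostdc1, Acsbg1, Tmem163, Cpne7 and the oxidase subunit Cybb. The 8 members of the WT2 kidney, which entered no test, held 5 counts of Klrc1, 3 of Klrd1 and 1 each of Itgae and Acsbg1. Within the KO kidneys, against a floor of 7.05 CPM, Klrc1 was at least 12.5-fold lower, Spp1 at least 8.31-fold, Itgae at least 5.99-fold and Klrd1 at least 5.69-fold. Acsbg1 did not pass without KO1, Cybb and Cpne7 in DESeq2, or Sostdc1 with the Ccr7 gate (-0.86). Ccl5 (-3.95), Nkg7 (-3.03), Ccl4 (-6.63), Ifng (-5.11), S100a6 (-2.62) and the beta-1 integrin Itgb1 (-2.33) were lower. The antigen-presentation genes Cd74 (1.13) and H2-Aa (1.26) were higher. H2-Aa did not pass in DESeq2 (1.26), with sums of 5 cells (0.99) or without KO2 (0.64). Itgb1, Cd74 and H2-Aa turned with the Ccr7 gate, to 0.012, -0.68 and -0.86.

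Kidney tubule genes were nearly absent from kidney members. Their list summed to 3.16, 9.11 and 0 CPM in members, with 9 of 10 genes at 0. The KO1 and KO2 values rest on 1 count each. Other cells of the same kidneys had 1.94, 3.80 and 204 CPM, so members were lower only in WT1. The WT2 and WT3 kidneys, without member sums, had 123 and 1737 CPM in other cells. The myeloid list summed to 45.6 to 60.1 CPM against 198 to 323 CPM, with 8 of 10 genes at 0. The B cell list summed to 642, 692 and 900 CPM in members against 536, 577 and 711 CPM in other cells, higher in each of these mice. Of its 6 tested genes 2 were higher and 1 lower. Cd79a, Cd79b, Ms4a1 and Ighd were at 0 in members.

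Kidney and spleen members of the same 3 mice differed in 488 of 3307 tested genes (14.8%), 336 higher in kidney (10.2%) and 152 lower (4.6%). The count was 280 without KO2, 311 without KO1 and 215 in DESeq2. The kidney was dissociated with enzymes and heating and the spleen was mashed through a strainer, so organ and preparation cannot be told apart. Cdkn1a, the p21 cell cycle inhibitor, was at 304, 182 and 182 CPM in kidney members and at 28.02, 12.4 and 11.0 CPM in spleen members (log2 fold change 3.63, SE 0.28, adjusted p = 5.86e-12). Crem, a cAMP-responsive factor, was at 234, 319 and 182 CPM against 34.0, 25.4 and 22.0 CPM (log2 fold change 3.16, SE 0.26, adjusted p = 1.46e-11). Ramp3, which modifies calcitonin-family receptors, was at 297, 319 and 353 CPM against 34.9, 38.9 and 66.1 CPM (log2 fold change 2.98, SE 0.23, adjusted p = 5.86e-12). In these 3 genes every kidney value lay above every spleen value.

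The other cells of these mice showed the same order of organs in all 3 genes. Ramp3 was at 217, 202 and 212 CPM in other kidney cells and at 21.9, 20.2 and 10.7 CPM in other spleen cells, and Crem at 238, 282 and 309 CPM against 35.4, 43.0 and 30.4 CPM. The organ difference of members minus that of other cells, an interaction test added after the first comparisons were seen, called 42 of 3307 genes. It did not pass for Ramp3 (-0.77, SE 0.31, adjusted p = 0.299) or Crem (0.11, SE 0.29, adjusted p = 0.933). It passed for Cdkn1a (1.47, SE 0.26, adjusted p = 0.0216), with other cells at 244, 144 and 170.0 CPM in kidney and 57.7, 43.5 and 33.9 CPM in spleen.

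The rest of the 10 largest rises in kidney members were the AP-1 factor Fosl2 (2.77), the tubulin Tubb2a (2.76), Ctla2a (2.56), the elongation factor Ell2 (2.23), the centromere histone Cenpa (2.20), Tmem120a (2.16) and the ubiquitin ligase Rnf125 (2.12). Tubb2a was at 184, 301 and 118 CPM in kidney and 29.4, 42.0 and 16.5 CPM in spleen members, and its interaction passed (1.30, SE 0.24, adjusted p = 0.0216), as did that of Cenpa (1.68, SE 0.31, adjusted p = 0.0216). The 10 largest falls were Mrpl18 (-1.97), Sash3 (-1.95), Ccdc85b (-1.95), Cdkn2aipnl (-1.90), Lasp1 (-1.86), Mob3a (-1.78), Mrpl42 (-1.73), Jun (-1.83) and the heat shock genes Hspa1b (-1.94) and Hspa1a (-1.74). DESeq2 gave no adjusted p for Tmem120a or for these falls other than Jun, Hspa1b and Hspa1a, with folds close to edgeR's (2.23 for Tmem120a and -2.32 to -1.76 for the falls). Cdkn2aipnl (-1.52) and Mob3a (-1.37) did not pass without KO2.

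Lasp1, an actin-binding protein, was at 12.7, 27.3 and 10.7 CPM in kidney members and at 57.9, 62.7 and 55.0 CPM in spleen members. Its other cells had 66.4, 65.8 and 66.2 CPM in kidney and 59.6, 72.5 and 59.2 CPM in spleen, and the interaction passed (-2.02, SE 0.41, adjusted p = 0.0341). The kidney member values rest on 4, 3 and 1 counts, and with the Ccr7 gate the organ difference was -0.16 and did not pass.

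Homing and exit receptors of members differed between the organs. Ccr7 was at 1629.6, 2834 and 2228 CPM in kidney against 790.1, 1208 and 963 CPM in spleen (log2 fold change 1.19, SE 0.12, adjusted p = 2.61e-09). S1pr1 was at 506, 565 and 407 CPM against 241, 258 and 237 CPM (log2 fold change 1.07, SE 0.16, adjusted p = 7.03e-06). The S1pr1 call was lost with sums of 5 cells allowed (0.80). Cxcr4 was higher in kidney members (1.39, SE 0.29), but not past the threshold without KO1 (1.16). Cd69, which antagonises S1PR1 at the surface, was at 348, 292 and 107 CPM in kidney against 486, 413 and 572 CPM in spleen (log2 fold change -0.80, SE 0.21, adjusted p = 0.00517), a call lost without WT1 (-0.44). Other cells had the same order of organs for Ccr7, S1pr1 and Cd69 in each of the 3 mice.

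Of 10 resting-cell factors 5 were higher in kidney members and 1 lower, against 10.2% and 4.6% of all genes. Zeb1 (1.37, SE 0.17), Klf3 (1.17, SE 0.19), Ets1 (0.61, SE 0.16) and Satb1 (0.54, SE 0.15) were higher and Tcf7 was lower (-0.56, SE 0.16). The calls of Satb1 (0.58), Ets1 (0.34) and Tcf7 (-0.54) were lost without KO2, and those of Satb1 and Tcf7 also without KO1 (0.45 and -0.64) and in DESeq2 (0.54 and -0.56). With the Ccr7 gate Satb1 did not pass (0.12). Of 14 naive surface genes 3 were lower and 1 higher, against 4.6% and 10.2% of all genes. Dapl1 was at 22.2, 27.3 and 53.6 CPM in kidney members and 70.7, 97.5 and 149 CPM in spleen members (log2 fold change -1.61, SE 0.36, adjusted p = 0.00126), and its interaction passed (-2.25, SE 0.41, adjusted p = 0.0216). Ramp1 (-1.31) and Treml2 (-1.41) were lower, and Cd55, which restrains complement, was higher (1.53). Ramp1 did not pass in DESeq2 (-1.42), which gave no adjusted p for Treml2, and Cd55 did not pass without KO2 (1.23). Actn1 did not pass (-0.15, SE 0.18, adjusted p = 0.672).

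Activation genes were higher in kidney members, 8 of 13 tested and 0 lower, with a median of 1.12. Over all genes 10.2% were higher and 4.6% lower. Ahnak was at 101, 155 and 214 CPM in kidney members against 40.4, 38.9 and 49.5 CPM in spleen members (log2 fold change 1.72, SE 0.28, adjusted p = 1.99e-05), and at 496, 606 and 602 CPM in other kidney cells. Itgb1 was at 199, 82.0 and 85.7 CPM against 44.1, 49.3 and 55.0 CPM (log2 fold change 1.60, SE 0.30, adjusted p = 0.000158), with KO1 the highest, and did not pass without KO1 (0.67). Lgals1 was higher (1.03, SE 0.20), and so was Anxa2 (1.99, SE 0.36), the latter in 2 of 3 mice. Lgals1 did not pass with 2 or more Igfbp4 UMIs (0.35), nor Lgals1 (0.32) and Anxa2 (0.86) with the Ccr7 gate.

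Of 4 tested effector genes 2 were higher in kidney members and 0 lower, Ccl5 and the death ligand gene Fasl (1.48, SE 0.40). Ccl5 was at 82.3, 164 and 878 CPM in kidney members against 83.6, 104 and 77.1 CPM in spleen members, and its call (1.27, SE 0.33) was lost without WT1 (0.31) and in DESeq2 (1.33). Of kidney members 2.82%, 11.1% and 10.5% carried both Nkg7 and Ccl5, against 2.05%, 3.11% and 5.56% of spleen members. The part of such cells in the activation genes was not tested.

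Immediate-early genes went both ways, 5 of 14 higher in kidney members and 4 lower. For this list and those that follow, the shares over all genes were 10.2% higher and 4.6% lower. Jun was at 608, 547 and 353 CPM in kidney members and 2611, 1660.0 and 1206 CPM in spleen members (log2 fold change -1.83, SE 0.15, adjusted p = 8.66e-12), and Fos at 791, 847 and 461 CPM against 3135, 1700.0 and 1200.0 CPM (log2 fold change -1.48, SE 0.15, adjusted p = 3.3e-09). Nr4a3 (1.76, SE 0.17) and Nr4a2 (2.00, SE 0.27) were higher in kidney. The other cells had the same order of organs for these 4 genes in each mouse. Of 8 heat shock genes 3 were higher, among them Dnaja1 (1.37) and Hsp90aa1 (0.96), and 2 lower. Of 12 survival genes 3 were higher, including Il4ra (1.09) and the pro-apoptotic Bcl2l11 (1.41), and 2 lower. Of 12 T cell identity genes 3 were lower, among them Lck (-0.83) and Trac (-0.98). Neither passed with the Ccr7 gate (-0.15 and -0.39), nor Trac without KO2 (-0.85).

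**Figure D4:**
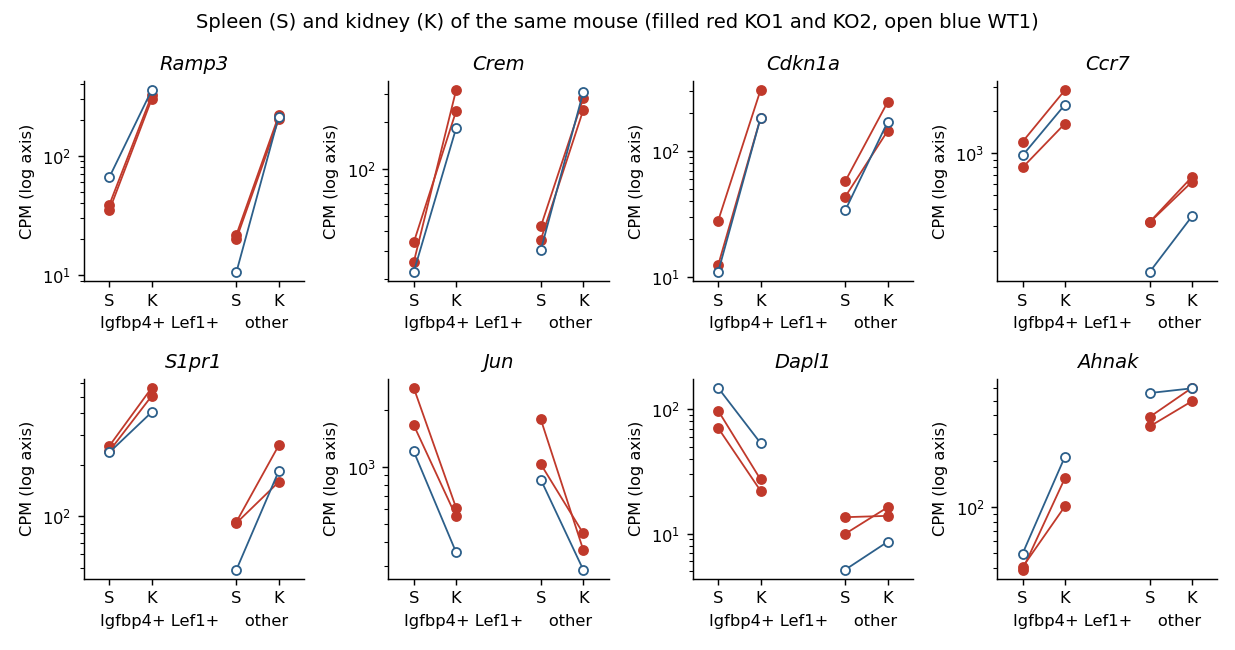
Summed expression in CPM (log axis) of 8 genes in spleen (S) and kidney (K), joined within a mouse, for Igfbp4+ Lef1+ cells and other cells of KO1 and KO2 (filled red) and WT1 (open blue). Ramp3, Crem and Cdkn1a are higher and Jun is lower in kidney in both kinds of cells, while Dapl1 is lower in kidney only in the Igfbp4+ Lef1+ cells, at 22.2 to 53.6 CPM against 70.7 to 149 CPM.

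KO and WT members of the spleen differed in 8 of 2724 tested genes (0.294%), 2 higher in KO (0.0734%) and 6 lower (0.22%). In 672 genes (24.7%) the genotypes did not overlap, and in 277 the unadjusted p was below 0.05. The WT members were 36, 20 and 16 cells, which limits what this comparison can detect. More genes were tested once a WT mouse was left out, 7961 without WT1, 7937 without WT2 and 7925 without WT3. Counts from these fits are therefore not directly comparable with the first. Without WT1 edgeR called 0 genes, while 690 of the 7961 had an unadjusted p below 0.05. The count was 47 without WT2, 17 without WT3, 16 without KO1 and 22 without KO2. DESeq2 called 27 genes, and the Ccr7 gate, which takes other cells, 618.

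Rgcc, a regulator of the cell cycle, was at 956 and 989.7 CPM in KO members and at 424, 406 and 302 CPM in WT members (log2 fold change 1.40, SE 0.21, adjusted p = 0.0285). Its other cells had 373 and 344 CPM in KO and 249, 96.5 and 147 CPM in WT, again without overlap. Trbv20, a variable segment of the T cell receptor beta chain that is named after its values were seen, was the other gene higher in KO (log2 fold change 2.19, SE 0.34, adjusted p = 0.0285), at 156 and 131 CPM against 22.0, 41.6 and 41.7 CPM. The WT member values lay close to those that 3 counts would give, 16.5, 31.2 and 31.3 CPM, and come from 36, 20 and 16 cells. In other cells Trbv20 was at 97.6 and 134 CPM in KO and 127, 193 and 260 CPM in WT.

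The genes lower in KO members included 3 that interferons induce. Iigp1, an interferon-inducible GTPase, was at 33.5 and 39.9 CPM in KO members and at 110.1, 187 and 136 CPM in WT members, the latter from 20, 18 and 13 counts (log2 fold change -1.86, SE 0.29, adjusted p = 0.0285). Cd274, which encodes PD-L1, was at 43.6 and 41.0 CPM against 132, 208 and 104 CPM (log2 fold change -1.73, SE 0.28, adjusted p = 0.029). Ly6a, which encodes Sca-1, was at 294 and 269 CPM against 617, 791 and 657 CPM (log2 fold change -1.23, SE 0.21, adjusted p = 0.0351). In none of them did the genotypes overlap, which was a condition for naming them. None passed with the Ccr7 gate (-0.10, -0.68 and -0.48) or without WT1. Ly6a also lost its call without KO1 (-1.28) and without KO2 (-1.13).

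The other spleen cells had no such order, and for Iigp1 and Cd274 both KO values lay above every WT value. Iigp1 was at 50.6 and 56.1 CPM in KO and 42.7, 12.7 and 14.3 CPM in WT, Cd274 at 115 and 132 CPM against 114, 58.4 and 77.3 CPM, and Ly6a at 593 and 458 CPM against 502, 648 and 423 CPM. The genotype difference of members minus that of other cells, also added after the first comparisons were seen, passed for Iigp1 (-2.95, SE 0.54, adjusted p = 0.0374), Cd274 (-2.21, SE 0.38, adjusted p = 0.0374) and Ly6a (-1.24, SE 0.23, adjusted p = 0.0374). Of the 8 tested genes of the interferon list 0 passed in edgeR, 4 had an unadjusted p below 0.05 and 1 passed in DESeq2.

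The remaining lower genes were Tnfsf8, which encodes CD30 ligand, Gzmk and Nkg7. Tnfsf8 was at 51.0 and 53.4 CPM in KO members against 132, 156 and 115 CPM (log2 fold change -1.31, SE 0.24, adjusted p = 0.0442). The granzyme Gzmk was at 6.43 and 7.26 CPM against 44.0, 104 and 479.7 CPM (log2 fold change -4.67, SE 0.79, adjusted p = 0.0351), and the granule protein Nkg7 at 26.6 and 31.6 CPM against 231, 20.8 and 574 CPM, with WT2 below both KO mice (log2 fold change -3.15, SE 0.55, adjusted p = 0.0381). The Nkg7 and Ccl5 pair was found in 2.05% and 3.11% of KO members and in 5.56%, 10% and 25% of WT members, and the part of such cells in these genes was not tested. With a gate of 2 or more Igfbp4 UMIs, Nkg7 (-1.96), Tnfsf8 (-1.19) and Trbv20 (1.90) did not pass. Tnfsf8 lost its call whichever mouse was left out (-1.36 to -1.20) and with the Ccr7 gate (-0.28). Nkg7 lost it in DESeq2 (-3.21) and without WT3 (-2.34), which is also the fit with at least 20 cells per sum, and Trbv20 with the Ccr7 gate (0.21).

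No gene of the naive programme passed between the genotypes among members. This covers 9 tested transcription factors, 8 homing genes, 13 naive surface genes, 11 survival genes, 9 quiescence genes and 10 translation genes, of which 3, 0, 5, 4, 1 and 0 had an unadjusted p below 0.05 in edgeR and 0 passed in DESeq2. Ccr7 (0.32, SE 0.27, adjusted p = 0.749), Satb1 (0.46, SE 0.25, adjusted p = 0.564) and Actn1 (0.72, SE 0.31, adjusted p = 0.454) are examples, of which Satb1 and Actn1 passed with the Ccr7 gate. Actn1 also passed without the filter on low counts (0.88). Nr4a3 (1.26, SE 0.25, adjusted p = 0.0654) and Junb (0.64, SE 0.13, adjusted p = 0.0758) were the nearest among 13 immediate-early genes, of which 0 passed in edgeR and 3 had an unadjusted p below 0.05. Nr4a3 passed in DESeq2 (1.25), the 1 gene of this list to do so, and both genes passed without the filter on low counts (1.42 and 0.81) and with the Ccr7 gate (1.17 and 1.19). Junb also passed without WT3 (0.57). The 13 activation genes had a median of -1.11 against 0.00 over all genes, with 0 passing in edgeR, 8 at an unadjusted p below 0.05 and 1 passing in DESeq2.

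**Figure D5:**
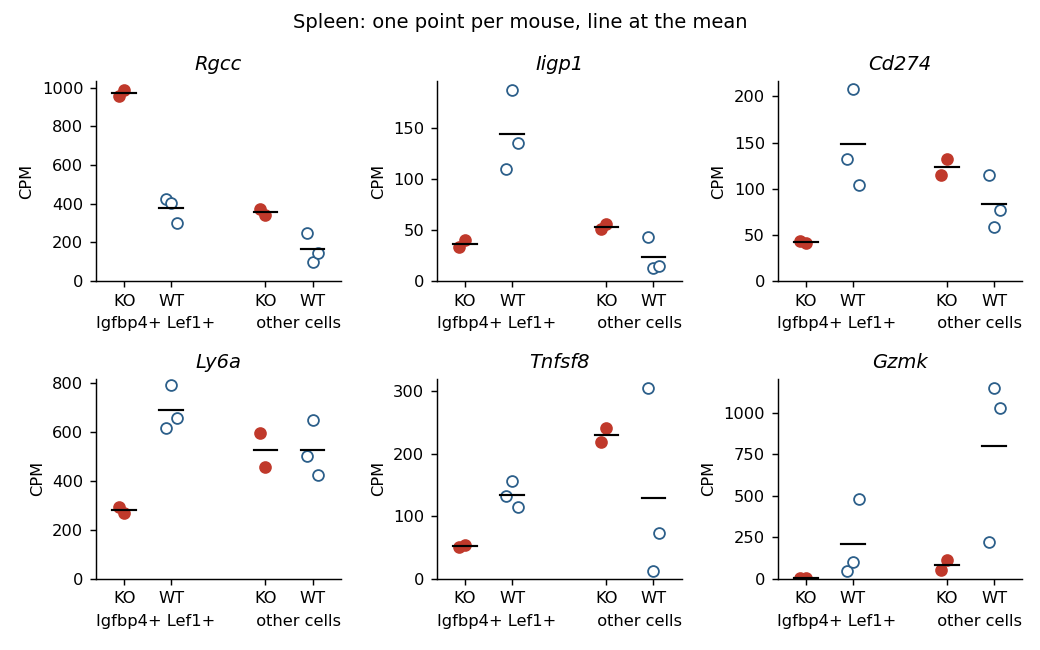
CPM of 6 genes called between KO and WT members of the spleen, 1 point per mouse (filled red KO, open blue WT) with the mean as a line, in Igfbp4+ Lef1+ cells and in other cells. Rgcc is higher in KO in both kinds of cells, while Iigp1 is lower in KO in the Igfbp4+ Lef1+ cells, at 33.5 and 39.9 CPM against 110.1 to 187 CPM, and not in the other cells.

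In kidney only WT1 among the WT mice had 10 or more members, so the genotypes were not tested there. Rgcc was at 1256 and 1949.7 CPM in KO1 and KO2 and at 1221 CPM in WT1. Iigp1 was at 75.9 and 91.1 CPM against 64.3 CPM and Ly6a at 405 and 255 CPM against 343 CPM. The WT1 value of Iigp1 lay below both KO values, from 6 counts in 19 cells against 24 and 10 counts. That of Ly6a lay between its KO values. This order was unlike that in spleen, but it rests on 1 WT kidney, and a difference between the organs was not tested.

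T cell receptor beta variable segments were read from their transcripts. A segment was assigned to 84.1%, 84.7%, 88.9%, 85% and 87.5% of spleen members. The inverse Simpson index, the effective number of equally used segments, was 11.0, 11.0, 13.1, 10.5 and 5.69 in members and 12.4, 11.95, 12.1, 10.9 and 10.3 in other cells. The mean difference was -1.28, lower in 4 of 5 mice, which did not pass (exact two-sided sign-flip permutation p = 0.1875). It was -0.44 without WT3, where only 14 members had a segment. The most used segment was Trbv20 in KO1 members (15.1%) and Trbv13-2 in KO2 members (15.5%).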

How the data were processed

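Gene and tag counts were deposited by the authors as 2 matrices of UMI counts per cell (kidney and spleen, 32285 genes and 10 antibody tags), made with Cell Ranger 7.1.0 and Seurat 5.0.1 on mm10 (GRCm38), per the submitters' processing notes. First-day cells were assigned to mice by barcode block, its leading tag and the deposited tag key, and 13 of 13368 cells, with another leading tag, were left out. No further doublet caller was run. The cell filter (200 or more genes, mitochondrial share under 10%) kept 13337 of the remaining 13355 cells. Counts were summed per mouse, organ and class where 10 or more cells existed.

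Sums were tested with edgeR 4.0.16 (quasi-likelihood, TMM scaling, filterByExpr) over all genes but the 5 gate genes, with Benjamini-Hochberg adjustment and a threshold of 0.05. The mouse was a block wherever both groups came from the same mice, since same-numbered sums are of 1 animal. Log2 fold changes are edgeR's fitted values, SE is derived from its F statistic, and CPM is by the library total of each sum. Alternatives included DESeq2 1.42.0, other gates and leaving out each mouse. The edgeR fits were run on simulated counts. Of changes of log2 1 they recovered 18.4% (members, spleen), 3.37% (members, kidney), 12.9% (organs) and 14% (genotypes). Of changes of log2 2 they recovered 89.4%, 50%, 74% and 77.5%, and the interaction tests 32.5% (genotype) and 51% (organ). A gene that did not pass may therefore still differ. The shares and permutation tests were not simulated. Named genes were the markers, Ezh2, the 10 largest changes in each direction that held in every mouse (or without overlap) except receptor segments and predicted genes, and the members of each list with the smallest p. Members and gene lists were chosen with earlier results of these data known. Median depth per cell was similar between libraries, but the sums tested held 93360 to 9921104 UMIs. Intervals and floors cover counting error only. The T cell receptor library was not analysed here. Gene positions are from RefSeq (GRCm38.p6). Some single genes are not reported here.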

Additional observations from a re-analysis of the deposited data

Results flagged for a closer look

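For 8 named genes the genotype difference (KO minus WT, log2, spleen) was not the same in Igfbp4+ Lef1+ cells and in other cells, by the interaction test of edgeR with the mouse as a block. Members minus other cells gave -4.32 for Ly6c1, -3.85 for Pdlim4, -2.98 for S100a4, -2.95 for Iigp1, -2.69 for Ifngr2, -2.21 for Cd274, -1.24 for Ly6a and 2.83 for Trbv20. For Trbv20 the WT member values lay close to the level of 3 counts. Ly6c1 was at 158 and 201 CPM in KO and 165, 291 and 167 CPM in WT members, and at 34.2 and 35.0 CPM against 0.806, 1.25 and 3.52 CPM in other cells, so the genotypes lay apart in the other cells. Ifngr2 had the same pattern, with 30.6 and 29.9 CPM against 6.75, 0 and 2.01 CPM in other cells. The other cells of KO spleens also included cells with Lef1 or Igfbp4 alone.

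For 8 named genes the organ difference (kidney minus spleen, log2; KO1, KO2 and WT1) was not the same in both kinds of cells. Members minus other cells gave 1.71 for Cd74, 1.68 for Cenpa, 1.47 for Cdkn1a, 1.30 for Tubb2a, 1.23 for Ahnak, -0.69 for Junb, -2.02 for Lasp1 and -2.25 for Dapl1. Cd74, the invariant chain of antigen presentation, was at 522, 410.0 and 632 CPM in kidney and 192, 397 and 484 CPM in spleen members, and at 275, 287 and 286 CPM and 509, 731 and 494 CPM in other cells.

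The second-day entries, which no comparison used and which were given to no mouse, numbered 17523 over 8 barcode blocks of both organs but held only 2399 distinct barcodes, so most barcodes recur across blocks. Of 2392 barcodes that passed the cell filter in every block listing them, 380 met the gate in each of those blocks (15.9%) and 422 in at least 1. A barcode here need not be 1 cell of 1 organ, and no interval is given.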

How the results depend on the processing

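The number of genes that differed between members and other spleen cells was 2141, 1360 in DESeq2, 768 with Ccr7 in place of Igfbp4 in the gate, and 1168 to 2411 with 1 mouse left out. In kidney it was 832, 414 in DESeq2, 531 with sums of 5 cells allowed, 441 with the Ccr7 gate and 512 to 719 with 1 mouse left out. Between kidney and spleen members it was 488, 215 in DESeq2, 264 with sums of 5 cells allowed, 848 with the Ccr7 gate and 280 to 533 with 1 mouse left out. Between KO and WT members it was 8 of 2724 tested genes and 27 in DESeq2. It was 105 of 14894 without the filter on low counts and 17 of 7925 with at least 20 cells per sum. With the Ccr7 gate it was 618 of 8268, and with 1 WT mouse left out 0 to 47 of 7925 to 7961. The Ccr7 gate took 1831 cells in place of 1184. The cause of these shifts was not tested.

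The difference of KO and WT shares in kidney, 10.5 percentage points, was 8.70 with 2 or more Igfbp4 UMIs, 19.6 with the Ccr7 gate and 13.4 without the conditions on Foxp3 and CD8. With the Ccr7 gate the log2 difference of members changed sign for Cd74 (-0.68), H2-Aa (-0.86) and Itgb1 (0.012) in kidney and for Plk1 (0.12) and Myb (0.72) in spleen, and that of Ezh2 in kidney, which had not passed, became 0.26. Without the replicate block the counts were 1768 in spleen, 764 in kidney and 453 between organs. KO and WT mice are different animals, so no block applied between them.

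Of the genes followed through the alternatives, 52 of 79 in spleen, 30 of 39 in kidney, 33 of 51 between organs and 1 of 14 between genotypes kept direction and side of the threshold in every alternative that gave an adjusted p; DESeq2 gave none for 10 of the genes between organs. Depth limits the rare WT members most, whose spleen sums held 95895 to 181661 UMIs.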
